A study of Mus musculus with 6 samples.

Results

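The VEGF family in rib cage RNA was taken as 10 genes of the 55487 gene identifiers in the count table, matched by symbol: the ligands Vegfa, Vegfb, Vegfc, Vegfd and Pgf, the receptors Flt1, Kdr and Flt4, and the co-receptors Nrp1 and Nrp2. The matching used no measured value, although the family was chosen with earlier results of these data known. All 10 were among the 26596 genes tested. RNA-seq was made from rib cages of mouse embryos at 16.5 dpc (days post coitum), 3 controls (embryos E420, E434 and E435, labelled wild type) and 3 Col2-cre;Foxc1-/-;Foxc2-/- mutants (embryos E423, E433 and E440), to ask how loss of these forkhead transcription factors in chondroprogenitors alters gene expression. Mutants came from Col2-cre;Foxc1+/Δ;Foxc2+/Δ males and Foxc1 fl/fl;Foxc2 fl/fl females on a mixed C57B6 and Black Swiss background. The authors describe controls as lacking Col2-cre for their skeletal preparations, while the labels of these libraries say only wild type. The Col2-cre transgene is active in chondrocytes, perichondrium and the primary ossification centre. Which embryos shared a litter was not given in the sources used here.

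VEGF ligands are secreted growth factors that drive the growth of blood and lymphatic vessels through receptor tyrosine kinases on endothelial cells. In the growth plate, hypertrophic chondrocytes and osteoblast-lineage cells are known sources of VEGFA, which brings vessels into the cartilage as it is replaced by bone. VEGFA signals mainly through the Kdr product (VEGFR2), the Flt1 product (VEGFR1) binds VEGFA, VEGFB and placental growth factor tightly with little kinase output, and the Flt4 product (VEGFR3) receives VEGFC and VEGFD and is best known in lymphatic vessels. Neuropilins are co-receptors for VEGF ligands and for class 3 semaphorins.

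Counts per library ran from 37853988 to 47794799, so that 1 count was worth 0.0206 to 0.0255 CPM (counts scaled to the size of each library, with TMM factors). These limits cover counting error only. Control E434 and mutant E433 stood apart from the other libraries of their groups. Their early chondrocyte markers summed to 27647 CPM in control E434 against 2024 and 2130 CPM in the other controls. In mutant E433 they summed to 10297 CPM, against 718 and 741 CPM in the other mutants. Controls E420 and E435, and mutants E423 and E440, were by contrast very close (mean chi-square per gene of 10.1 and 3.50, against 179 to 256 for the other pairs within groups, where both ends of a fragment were counted). Foxc1 stood at 23.1 CPM in control E420, 36.9 in E434 and 24.2 in E435, against 3.56 in mutant E423, 9.61 in E433 and 3.51 in E440. Foxc2 was at 1.99 to 4.83 CPM in the controls and 0.649 to 1.14 CPM in the mutants. Neither target gene passed the adjusted limit in edgeR (adjusted p = 0.235 and 0.239), while the groups did not overlap for either. DESeq2 gave Foxc2 an adjusted p of 0.000207. All 13 early chondrocyte and 14 osteoblast and osteocyte markers, and all 16 endothelial markers, had counts in every library.

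All 10 genes matched a RefSeq promoter window (GRCm38.p6, 250 bases before to 50 bases after a start), with 12 windows in all because Vegfa and Pgf have 2 each. Exact matches were sought on both strands for a forkhead core (TGTTTA or TAAACA), a HIF core, bound by the hypoxia factors (ACGTG or CACGT), and a GC box (GGGCGG or CCGCCC). Of 32851 RefSeq windows of 300 bases, 13.4% held the forkhead core, 19.6% the HIF core and 35.7% the GC box. Among the 12 windows of the family, 1 held the forkhead core (Vegfb), 1 held the HIF core (the second Vegfa window) and 10 held a GC box. The windows of Vegfb, Nrp2 and Vegfd are shown, Vegfb for its forkhead core and Nrp2 and Vegfd because their control and mutant libraries did not overlap. Pgf did not overlap either, but both its windows lie wholly in annotated exons and are not printed. Bases inside annotated exons (GENCODE vM21) were left out, and capitals mark the matched letters, which overlap in places.
Vegfb, chr19:6987652-6987901, minus strand: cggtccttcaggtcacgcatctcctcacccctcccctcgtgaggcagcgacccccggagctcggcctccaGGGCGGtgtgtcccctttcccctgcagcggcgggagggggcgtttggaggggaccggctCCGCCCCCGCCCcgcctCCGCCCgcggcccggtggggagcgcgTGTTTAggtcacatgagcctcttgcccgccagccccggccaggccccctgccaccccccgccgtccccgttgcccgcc
Nrp2, chr1:62703067-62703284, plus strand: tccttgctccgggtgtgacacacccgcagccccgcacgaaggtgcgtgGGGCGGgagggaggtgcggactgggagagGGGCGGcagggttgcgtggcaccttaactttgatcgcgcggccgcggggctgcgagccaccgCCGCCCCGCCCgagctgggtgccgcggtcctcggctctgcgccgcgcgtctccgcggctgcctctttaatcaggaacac
Vegfd, chrX:164373272-164373377, plus strand: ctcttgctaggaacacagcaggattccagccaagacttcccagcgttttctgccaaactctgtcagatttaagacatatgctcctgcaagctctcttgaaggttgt
The forkhead match of Vegfb began 78 bases before the start. The Nrp2 window held 5 GC box matches, 1 of them in the exon bases left out, and the Vegfd window none of the 3 motifs. A match describes letters and says nothing about binding.

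Levels between genes were compared as TPM (the RSEM unit that takes transcript length into account). Vegfb had the highest mean TPM over the 6 libraries (36.5, range 30.4 to 41.7), followed by Vegfa (29.4, 24.5 to 36.7), Nrp2 (28.4, 21.1 to 43.9), Nrp1 (24.8, 18.7 to 31.6) and Kdr (14.8, 11.8 to 19.3). Vegfd (6.61), Pgf (6.56), Flt1 (5.17), Vegfc (4.62) and Flt4 (3.55) formed the lower part of the order. Nrp1 exceeded Kdr, Kdr exceeded Vegfd and Pgf exceeded Flt1 in all 6 libraries. The other neighbours changed places between libraries: Vegfb exceeded Vegfa in 5 of 6, Vegfa exceeded Nrp2 in 4, Nrp2 exceeded Nrp1 in 4, Vegfd exceeded Pgf in 3, Flt1 exceeded Vegfc in 4 and Vegfc exceeded Flt4 in 5. Nrp2 exceeded Nrp1 in the 3 controls and in mutant E440. Vegfa and Vegfb together made up most of the summed ligand TPM, at 30.2% to 38.9% and 37.8% to 51.4% per library. The summed TPM of the ligands was 78.0 to 84.4 in the controls and 81.2 to 94.4 in the mutants, and that of the receptors and co-receptors 71.0 to 107 in the controls and 57.8 to 85.7 in the mutants.

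**Figure D1:**
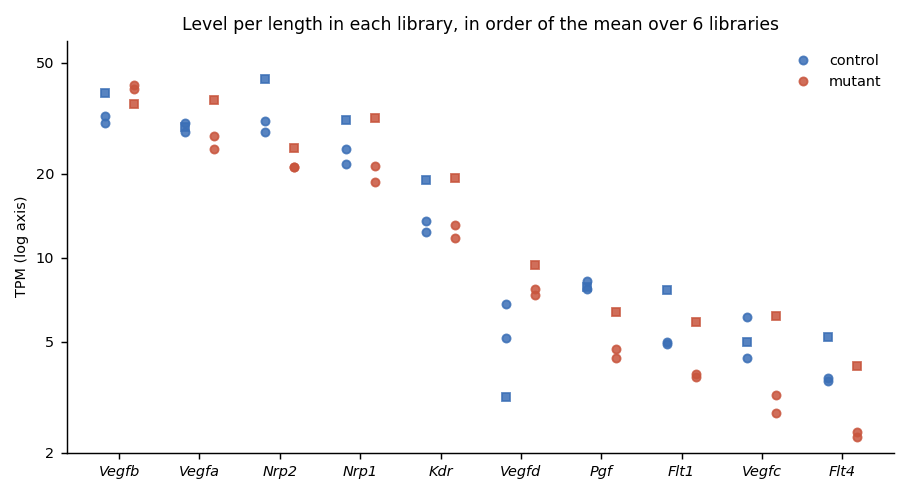
TPM of each gene in each library, on a log axis, in order of the mean over 6 libraries, with controls in blue and mutants in red (squares are control E434 and mutant E433). The means run from 36.5 TPM for Vegfb to 3.55 TPM for Flt4.

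No gene of the family passed both limits in edgeR (adjusted p under 0.1 together with a 1-unit or greater log2 fold change): 0 of 10, where 0.0639% of all genes tested did. At an unadjusted p under 0.05, 2 genes were lower in mutants (Pgf and Nrp2) and 1 was higher (Vegfd), where 4.7% of all genes tested were lower and 5.9% higher at that limit. For the same 3 genes the mutant libraries did not overlap the controls, 2 lower and 1 higher, where 8.21% and 6.81% of all genes tested were apart in those directions. DESeq2 also found 0 genes of the family past both limits, where 477 of all 26596 genes tested passed them. It gave Pgf and Nrp2 an adjusted p under 0.1, where 3.57% of all genes tested had one. The median log2 fold change of the 10 genes was -0.20, against 0.01 over all genes tested. Without control E434 that median was -0.05, and without mutant E433 it was -0.36. The values over all 6 libraries ran from -0.63 for Pgf to 0.67 for Vegfd. In bulk RNA, fewer cells of a type and less RNA per cell cannot be told apart. Labels name separate embryos, so the p-values measure the spread between libraries of separate embryos. That spread includes the differing marker content of control E434 and mutant E433. Without E434 and E433 it is only the small spread within the very close pairs.

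**Figure D2:**
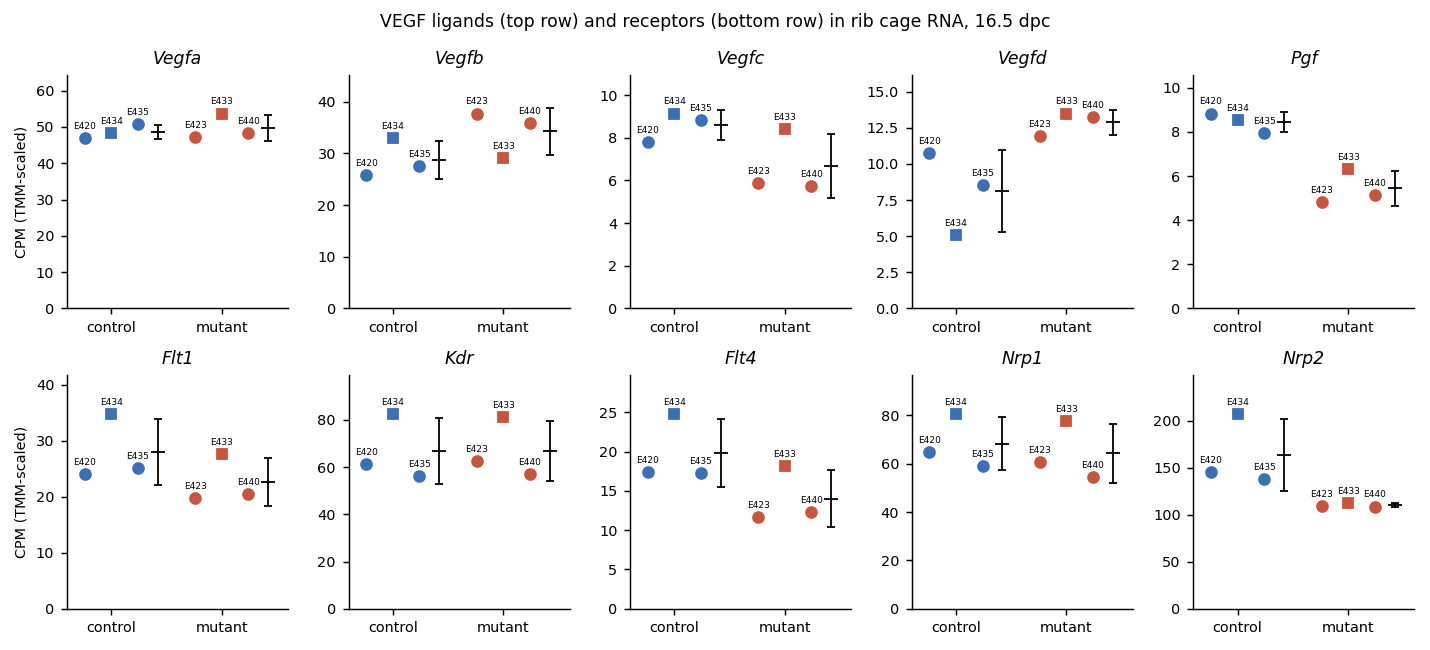
CPM of the ligands (top row) and of the receptors and co-receptors (bottom row) in each library, with group mean and SD in black (squares are control E434 and mutant E433). Pgf and Nrp2 are lower and Vegfd higher in every mutant than in any control, and E434 and E433 are the highest libraries of their groups for Flt1, Kdr, Flt4, Nrp1 and Nrp2.

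Vegfa (ENSMUSG00000023951.18, chr17:46016993-46032369, minus strand), the main growth signal for blood vessels, was at 47.1 CPM in control E420, 48.3 in E434 and 50.8 in E435, against 47.2 in mutant E423, 53.7 in E433 and 48.3 in E440. The groups overlapped, with means of 48.7 ± 1.92 and 49.7 ± 3.48 CPM (SD, n = 3 each). Its log2 fold change was 0.03 (SE 0.0812, 95% interval -0.16 to 0.22, edgeR adjusted p = 0.917). That interval was the narrowest of the family and lay far inside the fold limit of the test. By immunofluorescence, the authors found less VEGFA protein in hypertrophic chondrocytes of the mutants, which bulk rib cage RNA does not resolve.

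Vegfb (ENSMUSG00000024962.13, chr19:6982473-6987651, minus strand), a ligand of the Flt1 product, was at 25.9 CPM in control E420, 32.9 in E434 and 27.5 in E435, against 37.7 in mutant E423, 29.1 in E433 and 35.9 in E440. Mutant E433 lay within the range of the controls and the other mutants above it. The log2 fold change was 0.25 (SE 0.139, 95% interval -0.08 to 0.59, edgeR adjusted p = 0.56).

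Vegfc (ENSMUSG00000031520.6, chr8:54077606-54187096, plus strand), the main growth signal for lymphatic vessels, was at 7.79 CPM in control E420, 9.13 in E434 and 8.84 in E435, against 5.89 in mutant E423, 8.40 in E433 and 5.72 in E440. Only mutant E433 reached into the control range. Its log2 fold change was -0.36 (SE 0.184, 95% interval -0.81 to 0.08, edgeR adjusted p = 0.534). Without mutant E433 the value was -0.56, with an edgeR adjusted p of 0.062. Leaving out any of the other 5 libraries gave -0.43 to -0.26, with edgeR adjusted p-values from 0.635 to 0.939.

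Vegfd (ENSMUSG00000031380.10, chrX:164373378-164402650, plus strand), the other ligand of the Flt4 product, was at 10.7 CPM in control E420, 5.07 in E434 and 8.53 in E435, against 11.9 in mutant E423, 13.5 in E433 and 13.2 in E440. All 3 mutants lay above all 3 controls, and control E434 was the lowest library. The log2 fold change was 0.67 (SE 0.265, 95% interval 0.03 to 1.3, unadjusted p = 0.0426, adjusted p = 0.459 in edgeR). The difference of mutant E433 from control E434 was 1.41 on the log2 scale, and that between the means of the other mutants and the other controls was 0.38. The fitted value without control E434 was 0.42 (edgeR adjusted p = 0.425).

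Pgf (ENSMUSG00000004791.7, chr12:85166635-85177790, minus strand), which encodes placental growth factor, a ligand of the Flt1 product, was at 8.83 CPM in control E420, 8.52 in E434 and 7.96 in E435, against 4.83 in mutant E423, 6.33 in E433 and 5.16 in E440. The 3 mutants lay below the 3 controls. Group means were 8.43 ± 0.443 and 5.44 ± 0.789 CPM (SD, n = 3 each). The log2 fold change of -0.63 (SE 0.146, 95% interval -0.98 to -0.28) had an unadjusted p of 0.00403, the smallest of the family, and an adjusted p of 0.32 in edgeR. DESeq2 gave an adjusted p of 0.0145. The value was -0.43 between mutant E433 and control E434 and -0.75 between the means of the others.

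Among the receptors, Flt1 (ENSMUSG00000029648.13, chr5:147561604-147726011, minus strand) was at 24.1 CPM in control E420, 34.8 in E434 and 25.2 in E435, against 19.8 in mutant E423, 27.6 in E433 and 20.6 in E440. Mutant E433 exceeded controls E420 and E435. The log2 fold change was -0.31 (SE 0.195, 95% interval -0.77 to 0.16, edgeR adjusted p = 0.609), and it was -0.12 without control E434.

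Kdr (ENSMUSG00000062960.10, chr5:75932827-75978458, minus strand), the main signalling receptor of blood vessel endothelium, was at 61.3 CPM in control E420, 82.6 in E434 and 56.4 in E435, against 62.7 in mutant E423, 81.3 in E433 and 57.1 in E440. The groups covered nearly the same range. Its log2 fold change was 0.01 (SE 0.189, 95% interval -0.45 to 0.46, edgeR adjusted p = 0.996).

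Flt4 (ENSMUSG00000020357.3, chr11:49609263-49652739, plus strand), the receptor of VEGFC and VEGFD, was at 17.5 CPM in control E420, 24.8 in E434 and 17.3 in E435, against 11.7 in mutant E423, 18.1 in E433 and 12.3 in E440. Mutant E433 again lay within the control range, and the other mutants lay below it. The log2 fold change was -0.50 (SE 0.227, 95% interval -1.05 to 0.04, edgeR adjusted p = 0.499). Without mutant E433 it was -0.73 with an edgeR adjusted p of 0.089, and without control E434 it was -0.31 (adjusted p = 0.649). Leaving out each of the other libraries gave -0.60 to -0.38, with adjusted p-values from 0.73 to 0.93.

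Of the co-receptors, Nrp1 (ENSMUSG00000025810.9, chr8:128358604-128503363, plus strand) was at 65.0 CPM in control E420, 80.7 in E434 and 59.3 in E435, against 60.5 in mutant E423, 77.8 in E433 and 54.5 in E440, with a log2 fold change of -0.09 (SE 0.17, 95% interval -0.49 to 0.32, edgeR adjusted p = 0.882). The groups overlapped. Nrp2 (ENSMUSG00000025969.15, chr1:62703285-62818695, plus strand), known as the neuropilin of lymphatic endothelium and a semaphorin receptor of many other cells, was at 145 CPM in control E420, 207 in E434 and 138 in E435, against 109 in mutant E423, 112 in E433 and 109 in E440. All mutants lay below all controls, with means of 163 ± 38.3 and 110.2 ± 1.87 CPM (SD, n = 3 each). The log2 fold change was -0.57 (SE 0.161, 95% interval -0.96 to -0.18, unadjusted p = 0.0107, adjusted p = 0.381 in edgeR, adjusted p = 0.0624 in DESeq2). It was -0.89 between mutant E433 and control E434 and -0.37 between the means of the others, and the fitted value without control E434 was -0.36 (edgeR adjusted p = 0.238).

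**Figure D3:**
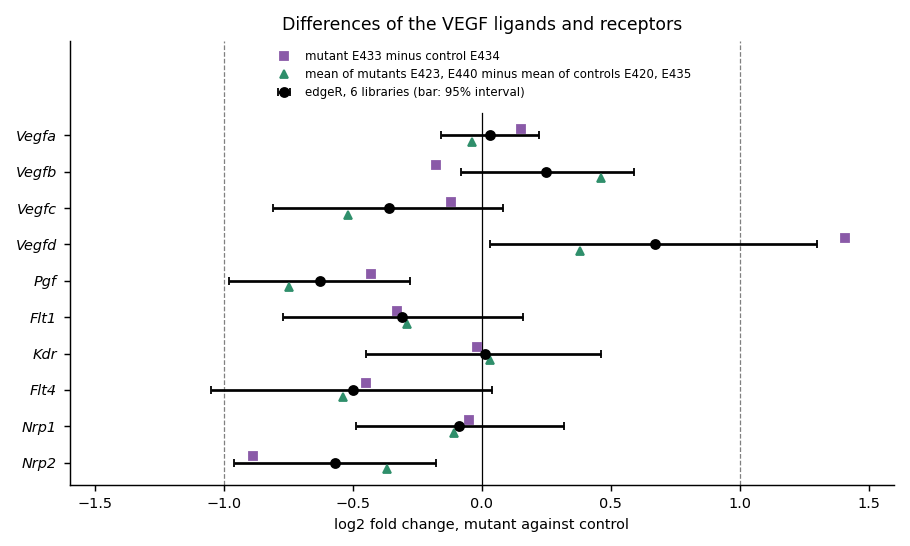
Log2 fold change of each gene, mutant against control, from edgeR over all 6 libraries with its 95% interval (black), with the difference of mutant E433 from control E434 (squares) and of the means of the other mutants and controls (triangles). The intervals of Vegfd, Pgf and Nrp2 leave out 0, and dashed lines mark the fold limit of 1.

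The libraries that stood apart were alike in their receptors. Control E434 exceeded the mean of the other controls by 0.50 for Flt1, 0.49 for Kdr, 0.51 for Flt4, 0.38 for Nrp1 and 0.55 for Nrp2 on the log2 scale. Mutant E433 exceeded the mean of the other mutants by 0.45, 0.44, 0.60 and 0.43 for the first 4 of these genes, and by 0.04 for Nrp2. Vegfa differed by -0.02 in control E434 and 0.17 in mutant E433. Vegfd was 0.93 lower in control E434 than in the other controls (a log2 difference of -0.93) and differed by 0.10 in mutant E433. The summed endothelial markers moved the same way: they were 825 CPM in control E434 against 681 and 663 CPM in the other controls, and 732 CPM in mutant E433 against 629 and 618 CPM in the other mutants. Their part in the receptor values was not tested.

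Without mutant E433, 3 genes of the family had an edgeR adjusted p under 0.1, all of them lower (Vegfc, Pgf and Flt4), where 6.18% of the genes then tested were lower at that limit. Leaving out any of the other 5 libraries gave 0 members at that limit in edgeR, with 2 to 4 members at an unadjusted p under 0.05. Over all genes it gave 20 genes at the adjusted limit without control E434 and 0 genes in the other 4 cases, where 1450 to 1698 had an unadjusted p under 0.05. Without both control E434 and mutant E433, 7 of the 10 genes did (Vegfb, Vegfc, Vegfd, Pgf, Flt1, Flt4 and Nrp2), in a fit of the very close pairs in which 37.6% of all genes tested did so. With each close pair summed into 1 library, an alternative chosen after seeing the data, 0 members and 0 genes in all had an adjusted p under 0.1 in edgeR, and 1 member and 769 genes had an unadjusted p under 0.05.

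Ratios within a library do not depend on its depth. The Flt1 to Kdr ratio of TPM was 0.361 in control E420, 0.405 in E434 and 0.402 in E435, against 0.285 in mutant E423, 0.306 in E433 and 0.326 in E440. All mutants lay below all controls, also in the libraries that stood apart. The mean log2 ratio was -1.36 ± 0.0924 in the controls and -1.71 ± 0.0962 in the mutants (SD, n = 3 each), a difference of -0.35 (exact permutation test, 2-sided, p = 0.1, the smallest that 3 against 3 can give; p = 0.35 adjusted over the 7 ratios). The Nrp1 to Nrp2 ratio was 0.797 in control E420, 0.707 in E434 and 0.764 in E435, against 1.01 in mutant E423, 1.28 in E433 and 0.889 in E440, also without overlap (log2 difference 0.47, exact permutation p = 0.1, adjusted p = 0.35). Vegfa to Kdr was 2.08 in control E420, 1.55 in E434 and 2.45 in E435, against 1.87 in mutant E423, 1.90 in E433 and 2.33 in E440 (log2 difference 0.02, exact permutation p = 1.0), and the groups overlapped. Vegfa against the sum of Flt1 and Kdr differed by 0.11 on the log2 scale (exact permutation p = 0.8).

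Each receptor was also set against the summed TPM of the 16 endothelial markers of the same library. Kdr per endothelial marker TPM differed by 0.13 between mutants and controls on the log2 scale (exact permutation p = 0.4), Flt1 by -0.22 (p = 0.3) and Flt4 by -0.39 (p = 0.2). The groups overlapped in all 3. On the CPM scale the Flt4 ratio no longer overlapped (log2 difference -0.38, exact permutation p = 0.1).

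**Figure D4:**
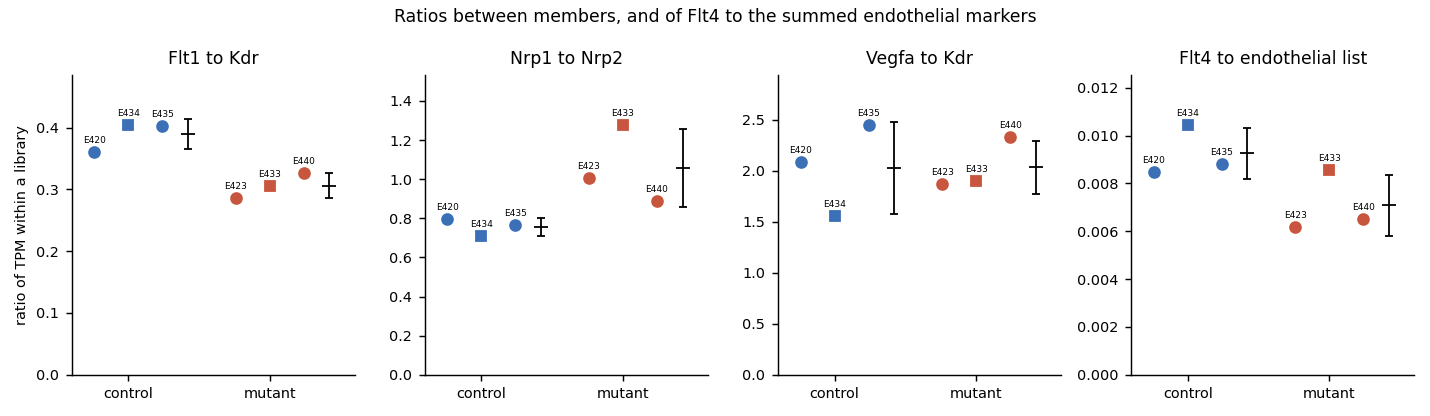
Ratios of TPM within each library for 3 pairs of the family, and of Flt4 to the summed TPM of the 16 endothelial markers, with group mean and SD of the ratios in black (squares are control E434 and mutant E433). Flt1 to Kdr is lower and Nrp1 to Nrp2 higher in every mutant than in any control, while Vegfa to Kdr overlaps.

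Flt1 makes a full-length membrane receptor and shorter soluble forms that trap the ligand, and Vegfa transcripts are spliced into isoforms of several lengths. The gene tables of RSEM hold no transcript counts, but give each gene's transcript length weighted by the estimated share of each transcript. For Flt1 this length was 6584 bases in control E420, 6149 in E434 and 6586 in E435, against 6644 in mutant E423, 6605 in E433 and 6633 in E440, so that all mutants lay above all controls and control E434 was the lowest (difference 187 bases, exact permutation p = 0.1, p = 0.45 adjusted over 9 genes). Without control E434 the difference was 42.03 bases. For Vegfa it was 2325 bases in control E420, 2315 in E434 and 2292 in E435, against 2478 in mutant E423, 2136 in E433 and 2267 in E440 (exact permutation p = 0.8). Nrp1 differed by -6.18 bases without overlap (exact permutation p = 0.1, adjusted p = 0.45). Vegfd had 2049 bases in every library and was not tested, and the other 6 genes had exact permutation p-values from 0.3 to 0.7.

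Over the 6 libraries, Pearson r of log2 CPM between genes of the family ran from -0.95 for Vegfd with Nrp2 to 0.98 for Flt1 with Flt4. Kdr and Nrp1 reached 0.96, Vegfc and Flt4 0.92, and Vegfa no more than 0.47 with any other (Vegfc). These values describe libraries that share tissue make-up and group, and carry no test. Among 13013 genes with a mean of at least 5 CPM, the genes most like Kdr were Lmln (r = 0.9984), Ylpm1 (0.9935) and Xrn1 (0.9931), and those most like Vegfa were Rrnad1 (0.9809), Hhex (0.9787) and Fam174b (0.9774). Those most like Nrp2 were Entpd1 (0.9963), Col1a1, the main collagen gene of bone (0.9953), and Tmem204 (0.9948).

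None of the genes in the 6 pathway lists around the family passed both limits in edgeR, where 0.0639% of all genes tested did. At an unadjusted p under 0.05 in edgeR, 4.7% of all genes tested were lower in mutants and 5.9% higher. In DESeq2, 3.57% had an adjusted p under 0.1. Inside the cell, of 30 VEGF signalling genes 1 was higher and 2 were lower in mutants at an unadjusted p under 0.05 (median log2 fold change 0.00): the kinase Src at -0.35, the kinase Prkcb at 0.51 and the adaptor Bcar1 at -0.22. Src was the gene of this list with a DESeq2 adjusted p under 0.1 (0.0994). Of 13 genes for VEGF-C maturation and extracellular modulation, 3 were lower at that unadjusted p and none higher (median -0.22, but -0.02 without control E434 and -0.32 without mutant E433): the heparan sulfate carrier Sdc2 at -0.72, Ccbe1, needed to mature VEGFC, at -0.41 and Gpc1 at -0.33. Sdc2 had the smallest edgeR adjusted p of the pathway lists (0.145), and a DESeq2 adjusted p under 0.1 (2.01e-06).

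The counts in the next lists are again at an unadjusted p under 0.05, where 4.7% of all genes tested were lower and 5.9% higher. Of 12 semaphorins and plexins that use neuropilins, 1 was lower (Sema3a, a ligand of neuropilins, at -0.49). Sema3g at -0.31 and Plxna4 at 0.27 were next by p (list median -0.13). Of 5 angiopoietins and Tie receptors, 1 was lower (Angpt4 at -0.79, under 1 CPM in both groups on average), with Tie1 at -0.26 and Angpt1 at -0.23 next (median -0.26). Of 9 oxygen-sensing regulators, Vhl was lower at -0.31 and Hif1an, an inhibitor of hypoxia factors, higher at 0.26 at that unadjusted p, and Hif1a stood at -0.16 (median -0.02). Of 14 hypoxia response genes, 0 passed even the unadjusted limit in edgeR and 0 the adjusted limit in DESeq2 (median 0.04), the 3 with the smallest p being P4ha1 at -0.75, Slc2a1 at -0.34 and Pdk1 at 0.20. DESeq2 gave 0 genes an adjusted p under 0.1 in these last 4 lists.

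**Figure D5:**
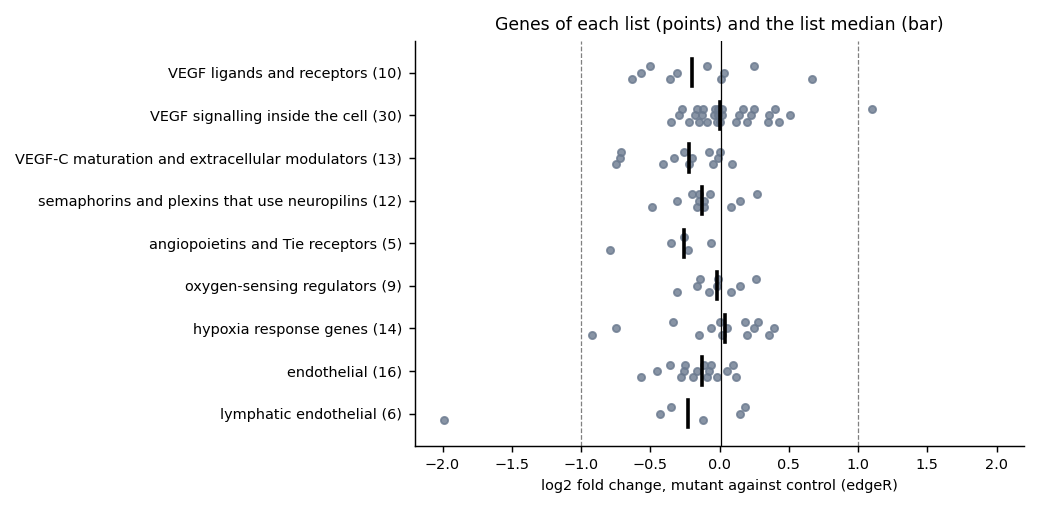
Log2 fold change, mutant against control, of each gene of the family, of the 6 pathway lists and of the endothelial and lymphatic endothelial markers (points; number of genes in brackets), with list medians as bars. The thin line is the median of all genes tested (0.01) and dashed lines mark the fold limit of 1; the family's median is -0.20 (-0.05 without control E434, -0.36 without mutant E433) and the lowest lymphatic point is Foxc2, one of the deleted genes.

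At an unadjusted p under 0.05 in edgeR, 4.7% of all genes tested were lower and 5.9% higher. Of the 16 endothelial markers, 3 were lower and 0 higher at that limit (median log2 fold change -0.13): Plvap at -0.45, Emcn at -0.36 and Ecscr at -0.25. DESeq2 gave an adjusted p under 0.1 for Plvap (0.0545). Their summed level was 663 to 825 CPM in the controls and 618 to 732 CPM in the mutants. Of 6 lymphatic endothelial markers, 2 were lower at that unadjusted p: Lyve1 at -0.35, and Foxc2 at -1.99. Foxc2 is one of the deleted genes, so its fall does not describe lymphatic cells. DESeq2 gave both an adjusted p under 0.1 (0.098 for Lyve1). Mmrn1 was next by p at -0.43. The sum of the 6 markers, Foxc2 among them, was 90.4 to 99.7 CPM in the controls against 72.0 to 90.1 CPM in the mutants. Foxc2 gave 3.22 CPM of the lowest control sum (E435) and 1.14 CPM of the highest mutant sum (E433). The narrow gap between these sums rests on Foxc2.

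Markers of other tissues differed in the same libraries, and their part in the values of the family was not tested. Counts of markers are at an unadjusted p under 0.05 in edgeR, where 4.7% of all genes tested were lower and 5.9% higher. Summed osteoblast and osteocyte markers were 19501 to 28132 CPM in the controls and 13737 to 14752 CPM in the mutants. Most of these sums was Col1a1 (9798 to 14932 CPM against 7152 to 7787 CPM) and Col1a2 (7950 to 11455 CPM against 5728 to 6608 CPM). The sums therefore say little about the other markers of the list. Of the 14 markers, 12 were lower at an unadjusted p under 0.05. In edgeR 1 passed both limits (Phex, log2 fold change -1.68, adjusted p = 0.0775). Hypertrophic chondrocyte markers, 7 of 9 lower, summed to 1947 to 2539 CPM against 560.1 to 1012 CPM. These lists share Spp1, Alpl, Ibsp and Runx2. Col10a1 and Ihh, which mark hypertrophic and prehypertrophic cells, overlapped between the groups (log2 fold change -1.51 and -1.75). Col10a1 was at 114 CPM in control E420, 559 in E434 and 113 in E435. It was at 75.6 CPM in mutant E423, 126 in E433 and 73.6 in E440. Ihh was at 2.47, 25.3 and 3.195 CPM in the same controls, against 1.15, 6.29 and 1.78 CPM in the same mutants. Only mutant E433 exceeded any control, and it lay below control E434 for both genes. The early chondrocyte median was -1.28 with 0 of 13 markers at that unadjusted p, but 1.03 without control E434 and -3.68 without mutant E433. Erythroid markers were lower (5 of 7, 22587 to 27788 CPM against 9368 to 18213 CPM) and macrophage markers were at 251 to 263 CPM against 215 to 239 CPM (2 of 7 lower). Fat cell markers were higher (10 of 10 at that unadjusted p, 259.6 to 323 CPM against 384 to 905 CPM), with Lep, Ucp1 and Cfd at 0 counts in at least 1 library. Hepatocyte markers were high in mutant E433 (summed 659 CPM, elsewhere 31.3 to 52.2 CPM, 5 of 11 markers higher). Keratinocyte markers were at 18.97 CPM in control E434 and 3246 to 27824 CPM in the other libraries (2 of 11 higher), with Flg at 0 counts in at least 1 library. Skeletal muscle markers were at 14968 to 24320 CPM against 18889 to 33526 CPM (2 of 10 higher, 1 lower), and pericyte and smooth muscle markers at 759 to 996 CPM against 739.6 to 891 CPM (0 of 9 either way).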

How the data were processed

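RNA from 3 control and 3 mutant rib cages was sequenced as paired 42-base reads. The authors aligned reads to GRCm38 with HISAT2 2.1.0 and deposited raw counts per gene from featureCounts 1.6.0 (primary alignments, GENCODE exons, each end counted, without strand). They also deposited expected counts and TPM from STAR 2.7.6 and RSEM 1.2.31; expected counts were rounded here. The other 12 columns of per-sample values were not used. The members and lists were chosen with earlier results of these data known. Named genes were the 10 members, Foxc1 and Foxc2, and the genes most like Vegfa, Kdr and Nrp2. For the pathway, endothelial and lymphatic lists, they were the 3 genes with the smallest p where none passed the limits. Other marker lists are given by counts and sums. Values are also printed for Phex, which passed both limits, and, outside this rule, for Col1a1, Col1a2, Col10a1 and Ihh.

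Counts were tested with edgeR 4.0.16 (quasi-likelihood test, TMM, at least 10 counts summed over the libraries, Benjamini-Hochberg) in R 4.3.3. Both edgeR and DESeq2 were tried on simulated counts with a single dispersion for all genes and no library apart from its group. That simulation does not cover the library differences seen here. DESeq2 1.42.0 was an alternative. Ratios and lengths were compared by exact permutation. Correlations used log2 CPM with a prior count of 2. The embryo numbers were taken from the labels. Depth was 37853988 to 47794799 counts.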

Additional observations from a re-analysis of the deposited data

How the results depend on the processing

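The authors state that they compared littermates, but which embryos were littermates is not given in the sources used here. No paired analysis was therefore possible, and all tests here were unpaired. The count of 0 members past both limits held under every alternative run. Few genes of any kind passed in most of them. It was 0 genes in all without control E420, control E435, mutant E423 or mutant E440, and with close libraries summed. The most were 477 of 26596 in DESeq2, 1087 of 25844 without mutant E433 and 2066 of 25045 without E434 and E433. At an adjusted p alone DESeq2 called Pgf (log2 fold change -0.62) and Nrp2 (-0.56). Vegfb, Vegfc, Vegfd, Pgf, Flt4 and Nrp2 kept their direction in all alternatives run, but not their size. With the endothelial level as covariate, Flt4 stood at -0.13, Vegfc at -0.17, Nrp2 at -0.32, Pgf at -0.52, Vegfd at 0.44, Kdr at 0.33, Flt1 at 0.02 and Nrp1 at 0.19, none with an edgeR adjusted p under 0.1, and with the early chondrocyte level Nrp1 stood at 0.05; the cause was not tested. Leaving out 1 library at a time gave log2 fold changes from -0.02 to 0.07 for Vegfa, -0.15 to 0.19 for Kdr and -0.24 to 0.05 for Nrp1, so these changed sign. Without control E434 and mutant E433, Vegfa stood at -0.03; with the close libraries summed, Kdr stood at -0.01. With 1 library left out at a time, the group difference in the log2 ratio of Vegfa to Kdr ran from -0.16 to 0.17 and that of Vegfa to the sum of Flt1 and Kdr from -0.08 to 0.25. Without 1 library at a time, the difference in transcript length ran from -109 to 61.8 bases for Vegfa and from -248 to 78.2 bases for Vegfc, the highest of each without mutant E433, and from 42.03 (without control E434) to 261 bases for Flt1. The difference of Flt1 to Kdr ran from -0.40 to -0.30 and that of Nrp1 to Nrp2 from 0.33 to 0.59. With 3 libraries a group, 1 of them apart, intervals of about 1 log2 unit remain for Vegfc, Flt1, Kdr and Flt4. The interval of Vegfd (0.03 to 1.3) was the widest of the family.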
